A study of Arabidopsis thaliana with 9 samples.

Results

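*CML37*, *CML38* and *CML39* are closely related calmodulin-like genes of *Arabidopsis thaliana*, and their transcript levels were followed in leaves of plants that overexpress cassava glutaredoxins. Their probe sets were taken from the platform annotation of the Affymetrix ATH1 array, which gave 1 probe set for each gene, 3 of the 22746 probe sets that are not manufacturer's controls. A probe set is a group of short oligonucleotides that together report 1 transcript. The annotation names *CML37* (AT5G42380) and *CML38* (AT1G76650) directly and gives the third probe set by its locus, AT1G76640. RefSeq lists the name *CML39* for AT1G76640 and also as an older name of AT5G42380, which has the symbol *CML37*, so *CML39* stands here for AT1G76640. *CML38* and *CML39* lie next to each other on the same chromosome, with no annotated gene between them.

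The MeGRX232-OE group held 3 arrays, from lines 3, 9 and 12, and the MeGRX360-OE group 3 arrays, from lines 5, 11 and 20. The control group held 3 arrays, numbered 1 to 3, of plants with the empty vector pG1300. All plants were transgenic, grew for 45 days at 22 °C under 12 h of light and 12 h of dark without any stress treatment, and mature leaves were harvested. The methods equate the MeGRX232-OE data with overexpression of *MeGRXC15*, a CC-type glutaredoxin gene that was fused to *GFP*, driven by the near-ubiquitous CaMV 35S promoter and brought into Col-0 plants. Each of these arrays came from a separate homozygous line. MeGRX360-OE is by its label another cassava glutaredoxin, whose construct is not described in the sources used here, and which vector line each control array came from is not stated outright. The array carries no probe set for the cassava transgenes, so their levels were not examined.

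Calmodulin-like proteins carry EF-hand motifs that bind calcium. When a stimulus raises calcium in the cytosol, the protein changes shape and acts on partner proteins, so a short calcium signal becomes a response of the cell. *CML37* is known as a positive regulator of defence against chewing herbivores, through jasmonate, and has been linked to abscisic acid in drought. *CML38* is a core gene of the response to low oxygen, and its protein gathers in RNA granules of hypoxic cells. *CML39* is known for its part in seedling establishment. Transcripts of such genes often rise within minutes of touch or wounding.

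Values are intensities on a linear scale as normalized by the authors. Array medians lay at 28.1 to 29.4 in MeGRX232-OE, 28.7 to 29.3 in MeGRX360-OE, against 29.3 to 30.2 in vector arrays. Levels of the leaf markers rubisco activase (*RCA*), phosphoribulokinase (*PRK*) and carbonic anhydrase (*CA1*) were high in all groups, with *RCA* at 6875 to 8038 in MeGRX232-OE, 8988 to 9340 in MeGRX360-OE, against 11125 to 11615 in vector arrays. Of the 3 markers, *RCA* and *PRK* fell in MeGRX232-OE and *PRK* in MeGRX360-OE against vector, and *CA1* did not pass the test in either. The root marker *SCR*, which leaf vein sheaths also express, was the only root marker with a named probe set and was lower in both overexpressors than in vector (56.8 to 66.3 in MeGRX232-OE, 83.4 to 120 in MeGRX360-OE, against 137 to 210 in vector arrays). *SCR* and *CA1* owe their names to gene lists that the study drew from changes on these arrays, so their directions are not independent evidence. Flower and seed markers had no named probe set and were not examined. In whole leaves, fewer cells of a type and less RNA per cell cannot be told apart. With 3 arrays a group, precision is limited by their number.

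*CML37* was far higher in both overexpressors than in vector plants. Its intensities were 306, 347 and 573 in MeGRX232-OE lines 3, 9 and 12, 233, 74.8 and 150 in MeGRX360-OE lines 5, 11 and 20, and 8.82, 7.84 and 5.92 in vector arrays 1, 2 and 3. Every overexpressor array lay above every vector array, and the lowest of them, line 11 of MeGRX360-OE, was still well clear of the highest vector array. Mean log2 intensities were 8.62 ± 0.48 in MeGRX232-OE, 7.11 ± 0.83 in MeGRX360-OE and 2.89 ± 0.30 in vector plants (SD, n = 3 each). In limma, fitted on log2 intensities of all probe sets with Benjamini-Hochberg adjustment, the log2 fold change was 5.73 in MeGRX232-OE against vector (SE 0.40, adjusted p = 5.39e-05), a 53.0-fold difference with a 95% interval of 28.3 to 99.2. In MeGRX360-OE against vector it was 4.21 (SE 0.40, adjusted p = 5.09e-04), an 18.6-fold difference with an interval of 9.90 to 34.8. The vector values lay below the 25th percentile of their arrays, at 8.84 to 9.08, and no detection calls were part of the values used. The size of the fold therefore rests on very dim values: with 16 added to every intensity before the log, the change was 4.12 in MeGRX232-OE and 2.73 in MeGRX360-OE against vector, both past the threshold.

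*CML38* was also far higher in both overexpressors. It measured 1627, 2031 and 2360 in MeGRX232-OE lines 3, 9 and 12, 1334, 991 and 1338 in MeGRX360-OE lines 5, 11 and 20, and 29.1, 62.3 and 38.7 in vector arrays 1, 2 and 3. The groups did not overlap, and line 11 was again the lowest overexpressor array while line 12 was again the highest. Mean log2 intensities were 10.95 ± 0.27 in MeGRX232-OE, 10.24 ± 0.25 in MeGRX360-OE and 5.36 ± 0.56 in vector plants (SD, n = 3 each). The limma estimate was 5.59 on the log2 scale for MeGRX232-OE against vector (SE 0.27, adjusted p = 1.24e-05), which is 48.1-fold with a 95% interval of 31.4 to 73.9. Against the same vector arrays MeGRX360-OE gave 4.88 (SE 0.27, adjusted p = 5.41e-05), or 29.4-fold with an interval of 19.1 to 45.1. Unlike *CML37*, *CML38* was above the 25th percentile of the array in vector plants, and with 16 added the changes were still 5.11 and 4.41 in MeGRX232-OE and MeGRX360-OE.

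*CML39* stayed dim in every group. Its intensities were 9.36, 8.68 and 10.6 in MeGRX232-OE lines 3, 9 and 12, 16.8, 11.5 and 10.4 in MeGRX360-OE lines 5, 11 and 20, and 10.4, 8.54 and 9.28 in vector arrays 1, 2 and 3. All groups overlapped, and only line 5 of MeGRX360-OE stood clearly above the others. Mean log2 intensities were 3.25 ± 0.15 in MeGRX232-OE, 3.66 ± 0.37 in MeGRX360-OE and 3.23 ± 0.14 in vector plants (SD, n = 3 each). The limma log2 fold change was 0.02 in MeGRX232-OE against vector (SE 0.18, 95% interval -0.39 to 0.44, adjusted p = 0.954). It was 0.43 in MeGRX360-OE against vector (SE 0.18, interval 0.01 to 0.84, adjusted p = 0.165), and 0.22 without line 5. Most of these values were close to the 25th percentile of the arrays, which was 8.84 to 9.51. A small change of *CML39* at a low level could therefore have been missed at this signal.

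**Figure D1:**
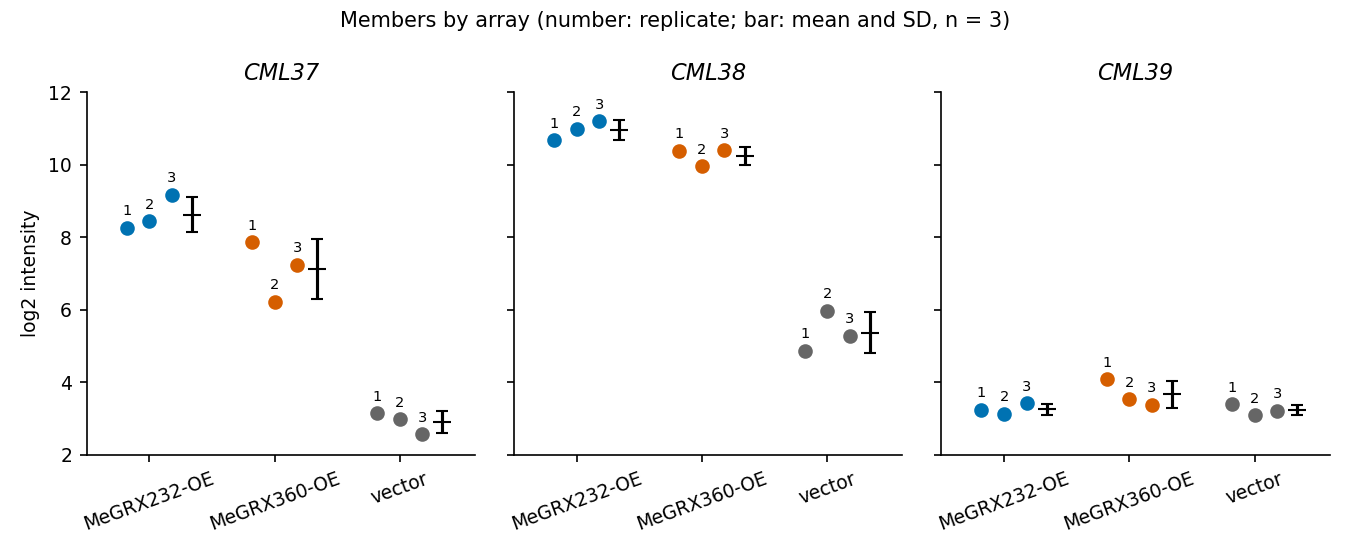
Log2 intensity of *CML37*, *CML38* and *CML39* (y axis) on each of the 9 arrays, by group (x axis). Points are arrays, labelled with their replicate number, and bars beside them are the mean and SD of 3 arrays. For *CML37* and *CML38* all 6 overexpressor arrays lie above the 3 vector arrays, with vector means at 2.89 and 5.36, whereas the *CML39* points of all groups overlap.

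Across the array, 9.22% of the 22746 probe sets were called higher and 12.8% lower in MeGRX232-OE against vector, at an adjusted p under 0.05, and 2 of the 3 genes were among those called higher. In MeGRX360-OE against vector 6.74% were called higher and 9.72% lower, and the same 2 genes were higher. Probe sets with all 3 arrays of a group above the 3 vector arrays made up 17% for MeGRX232-OE and 16.5% for MeGRX360-OE, so a lack of overlap by itself was common. The sizes were not: by log2 fold change *CML37* and *CML38* ranked 10 and 11 of all probe sets in MeGRX232-OE against vector, and 26 and 8 in MeGRX360-OE against vector. The 99th percentile of all log2 fold changes was 2.93 in the first comparison and 2.39 in the second, and the medians were 0.003 and 0.014. The 3 genes were chosen with earlier results of these data known, so these ranks are descriptions. Both comparisons share the 3 vector arrays and are not independent of each other.

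MeGRX232-OE leaves had the higher values of *CML37* and *CML38* when both overexpressors were set side by side, but neither difference passed the test. *CML37* had 306 to 573 in MeGRX232-OE and 74.8 to 233 in MeGRX360-OE, with no overlap. The log2 difference was 1.51 (SE 0.40, 95% interval 0.61 to 2.42), with an unadjusted limma p of 0.00446 that gave an adjusted p = 0.164. *CML38* had 1627 to 2360 in MeGRX232-OE and 991 to 1338 in MeGRX360-OE, also without overlap, and a log2 difference of 0.71 (SE 0.27, interval 0.09 to 1.33, adjusted p = 0.304). *CML39* went the other way, with 8.68 to 10.6 in MeGRX232-OE and 10.4 to 16.8 in MeGRX360-OE, with a log2 difference of -0.40 (SE 0.18, interval -0.82 to 0.01, adjusted p = 0.382). Few probe sets were called in this comparison, 0.0572% higher and 0.0879% lower in MeGRX232-OE than in MeGRX360-OE, and 7.72% had all 3 MeGRX232-OE arrays above the 3 MeGRX360-OE arrays. The order of the levels was thus MeGRX232-OE, MeGRX360-OE and vector for *CML37* and *CML38*, in which the upper neighbours did not differ beyond the threshold. No neighbours in the order of *CML39* did.

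**Figure D2:**
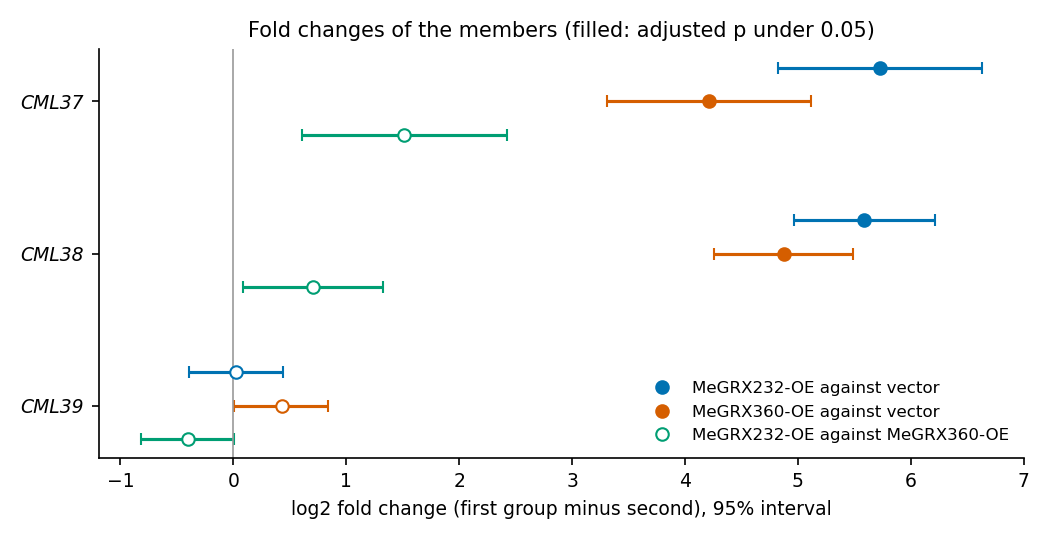
Log2 fold changes of *CML37*, *CML38* and *CML39* (x axis, first group minus second) with 95% intervals from limma, in the 3 comparisons. Filled points have an adjusted p under 0.05. Against vector *CML37* and *CML38* lie between 4.21 and 5.73 and *CML39* at 0.02 and 0.43, and all 3 open points of MeGRX232-OE against MeGRX360-OE lie between -0.40 and 1.51.

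Whether the genes moved unequally was tested on the difference of their log2 values within each array, which cancels anything that scales a whole array. *CML37* minus *CML39* was 5.03, 5.32 and 5.75 in MeGRX232-OE, 3.79, 2.71 and 3.86 in MeGRX360-OE, and -0.24, -0.12 and -0.65 in vector arrays. The mean over the 6 overexpressor arrays exceeded that over the 3 vector arrays by 4.75 (exact two-sided permutation test, p = 0.0238, the smallest that 84 arrangements allow, and 0.0357 adjusted over 3 differences). *CML38* minus *CML39*, the neighbouring genes, was 7.44, 7.87 and 7.79 in MeGRX232-OE, 6.31, 6.43 and 7.01 in MeGRX360-OE, and 1.48, 2.87 and 2.06 in vector arrays. Here the overexpressors exceeded vector by 5.01 (exact permutation p = 0.0238, adjusted 0.0357). For both pairs no overexpressor array came near a vector array. With 16 added to every intensity the 2 excesses were 3.33 and 4.67. Since *CML39* stayed dim in all groups, they largely restate the rises of *CML37* and *CML38*, whose groups had already been seen not to overlap. The test also pools both overexpressors. Either one alone against vector gave p = 0.1 for both pairs (exact permutation test), the smallest that 3 against 3 arrays allow.

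The rises of *CML37* and *CML38* were not told apart. *CML37* minus *CML38* was -2.41, -2.55 and -2.04 in MeGRX232-OE, -2.52, -3.73 and -3.16 in MeGRX360-OE, and -1.72, -2.99 and -2.71 in vector arrays. The groups overlapped, and the overexpressor mean differed from the vector mean by -0.26 (exact two-sided permutation test, p = 0.571, adjusted 0.571). With 16 added to the intensities that difference was -1.34 (adjusted p = 0.0238), since the offset shrinks the change of the dimmer gene. Within a single overexpressor the 3 arrays against 3 vector arrays cannot give an exact p below 0.1.

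**Figure D3:**
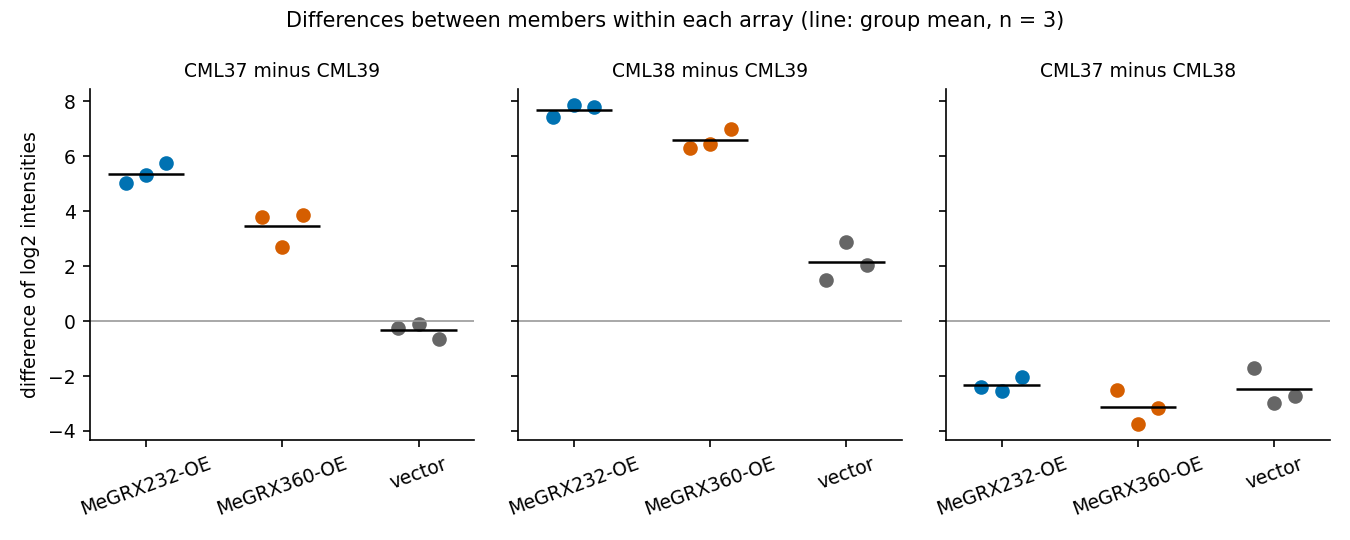
Difference of log2 intensities between 2 genes within an array (y axis) for each pair, by group (x axis). Points are arrays and lines are group means of 3. *CML37* minus *CML39* and *CML38* minus *CML39* were higher in all 6 overexpressor arrays than in vector arrays, by 4.75 and 5.01 on average, while *CML37* minus *CML38* overlapped between groups.

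Among the arrays of a group the genes with high signal varied by line. In MeGRX232-OE the highest *CML37* value was 1.87 times the lowest and that of *CML38* 1.45 times, with line 12 highest and line 3 lowest for both. In MeGRX360-OE the spread of *CML37* was wider, at 3.12 times, against 1.35 times for *CML38*. The vector arrays spread by 1.49 times for *CML37* and by 2.14 times for *CML38*, in different orders. Array quality measures moved with the groups to some degree. The 25S rRNA probe set had 546 ± 101 in MeGRX232-OE, 985 ± 116 in MeGRX360-OE and 324 ± 39.6 in vector arrays (SD, n = 3 each), so it was higher in both overexpressors like *CML37* and *CML38*, but in another order. The ratio of the 3′ to the 5′ *GAPDH* probe sets, which rises as RNA breaks down, was 10.4 to 11.1 in MeGRX232-OE, 9.37 to 16.1 in MeGRX360-OE, against 8.96 to 10.5 in vector arrays. The highest *GAPDH* ratio was that of line 5 of MeGRX360-OE, the array with the highest *CML39* value. The same ratio for actin was 13.6 to 20.1 in MeGRX232-OE, 12.0 to 14.8 in MeGRX360-OE, against 17.9 to 19.2 in vector arrays. For ubiquitin it was 2.46 to 2.56, 2.33 to 3.12 and 2.15 to 2.89 in the same order. The ratios thus did not move alike between groups. The part of these measures in the results was not tested. Without line 5 the log2 fold changes of *CML37* and *CML38* in MeGRX360-OE against vector were 3.83 and 4.81, and both passed the threshold.

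Most of the wider family of calmodulin-like genes could not be named and was not examined. The named members divided into those that rose in both overexpressors and those without a call. Of 50 family names, 8 were matched to a probe set through the gene that the platform annotation gives, *CML39* by its locus and the others by symbol, and 4 of the 8 rose in MeGRX232-OE against vector, none fell and 4 were not called, against a background of 9.22% called higher. In MeGRX360-OE against vector the same count held, 4 higher and 4 not called, against 6.74%. Without *CML37*, *CML38* and *CML39*, 2 of 5 rose in each comparison, *CML23* and *CML42*, and the median log2 fold change of the 5 was -0.04 in MeGRX232-OE and 0.05 in MeGRX360-OE against vector. *CML23* had 103, 104 and 110 in MeGRX232-OE, 87.1, 116 and 98.7 in MeGRX360-OE, and 31.8, 39.4 and 41.8 in vector arrays. Its log2 fold changes of 1.50 (adjusted p = 2.10e-04) and 1.42 (adjusted p = 6.36e-04, limma) were nearly alike.

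*CML42*, which takes part in trichome branching and in herbivore defence, had 86.0, 264 and 201 in MeGRX232-OE, 117, 282 and 285 in MeGRX360-OE, and 46.0, 50.1 and 52.0 in vector arrays. Replicate 1 was the lowest array of both overexpressors, whereas in MeGRX360-OE *CML37* and *CML38* were lowest in replicate 2. Its geometric means were 166 in MeGRX232-OE (adjusted p = 0.0219 against vector, limma), 211 in MeGRX360-OE (adjusted p = 0.0137 against vector) and 49.3 in vector plants, and the log2 fold change of MeGRX232-OE was 1.75 (SE 0.45). Both calls were lost when single arrays were left out, with adjusted p-values up to 0.0692 and 0.0550: in MeGRX232-OE without its replicate 2, its replicate 3 or any vector array, and in MeGRX360-OE without its replicate 3. A plain two-sample test in place of limma ended both calls too (adjusted p of 0.113 and 0.0725). *CML41*, which acts at plasmodesmata in immunity, was bright and variable, with 194 to 1152 in MeGRX232-OE, 520 to 1044 in MeGRX360-OE, against 480 to 953 in vector arrays, and passed no test. *CML30* and *CML43* were not called either, and *CML43* was as dim as *CML39*, with 9.11 to 10.7 in MeGRX232-OE, 9.96 to 10.6 in MeGRX360-OE, against 9.95 to 10.1 in vector arrays. In MeGRX232-OE against MeGRX360-OE 0 of the 8 were called by limma, where 0.0572% of all probe sets were called higher and 0.0879% lower. There 2 of the 8, *CML37* and *CML38*, had an unadjusted p under 0.05, as had 13.5% of all probe sets.

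Another 3 family members had no name in the annotation and were named through the study's own gene ontology lists. The study built those lists from genes that changed on these same arrays, so the direction of a gene named this way is not independent evidence. *CML12* and *CML24*, first found as the touch genes TCH3 and TCH2, and *CML16* all rose in both overexpressors. *CML12* had 3877 to 5851 in MeGRX232-OE, 3139 to 4926 in MeGRX360-OE, against 415 to 812 in vector arrays, with log2 fold changes of 2.96 and 2.73 against vector (SE 0.28 each). *CML16* stood at 2.27 and 1.77 (SE 0.16 each) and *CML24* at 2.13 and 1.76 (SE 0.25 each) in MeGRX232-OE and MeGRX360-OE. All of these changes were smaller in log2 fold than those of *CML37* and *CML38*, a contrast that was not tested.

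Other genes of calcium signalling were covered unevenly. Glutamate receptor-like channels let calcium into cells and carry wound signals between leaves. The 8 examined were listed after the annotation was read and owed their names to it, so they need not be the whole family. By limma 0 of the 8 were called in MeGRX232-OE against vector, where 9.22% of all probe sets were called higher and 12.8% lower. There 3 of the 8 had an unadjusted p under 0.05, as had 32.8% of all probe sets. The plain two-sample test called 2161 of all 22746 probe sets there, and among the 8 only *GLR2.8*. *GLR3.5* was the single one called in MeGRX360-OE against vector, beside 6.74% of all probe sets higher and 9.72% lower, where its log2 intensity was higher by 0.79 than in vector plants (SE 0.18, adjusted p = 0.0173). That call was lost without MeGRX360-OE replicate 2 or 3, without vector replicate 1 and in the plain test, with adjusted p up to 0.0916. The median of the 8 was 0.12 in both comparisons with vector. *GLR2.8* had the largest log2 fold change of the list in MeGRX232-OE, with intensities of 59.8 to 106 in MeGRX232-OE, 21.5 to 149 in MeGRX360-OE, against 16.7 to 26.6 in vector arrays, and its log2 fold changes of 1.99 (adjusted p = 0.0515) and 1.15 (adjusted p = 0.273) did not pass in limma, the first lying so near the threshold that 9 of 18 alternatives called it. *GLR3.3*, needed for wound signals, stood at -0.41 in MeGRX232-OE and 0.06 in MeGRX360-OE, and *GLR2.9* at 0.41 and 0.17, all without a call. *CAMTA3*, a transcription factor that binds calmodulin, and the calcium-dependent kinases *CPK6*, *CPK30* and *CPK32* were named through the study's lists. *CAMTA3* rose by 1.46 in MeGRX232-OE and 1.14 in MeGRX360-OE (SE 0.15 each) and *CPK32* by 2.35 and 1.88 (SE 0.23 each) on the log2 scale. *CPK6* and *CPK30* rose in MeGRX232-OE, by 1.07 and 1.00, and had 0.32 and 0.51 in MeGRX360-OE without a call.

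Early genes of touch and wounding, among which *CML37* and *CML38* are often found, could be named only in part. Of 20 names 4 were in the annotation, *STZ*, *WRKY53*, *PUB22* and *PUB23*. All 4 rose in MeGRX232-OE against vector, where 9.22% of all probe sets were called higher, and in MeGRX360-OE against vector, where 6.74% were. Their median log2 fold changes were 4.04 in MeGRX232-OE and 2.77 in MeGRX360-OE. The 20 names were chosen with earlier results of these data known, so this count is a description. A further 8 were named through the study's lists. All 8 were called higher in both comparisons. They could be named only because the study had listed them as changed on these arrays with *MeGRXC15* overexpression. Their calls in MeGRX232-OE are therefore not independent evidence, and those in MeGRX360-OE rest on the same vector arrays. *PUB23*, a ubiquitin ligase that dampens immune and drought responses, had 539, 708 and 891 in MeGRX232-OE, 496, 220 and 284 in MeGRX360-OE, and 20.1, 27.5 and 20.8 in vector arrays. Its order of lines in MeGRX232-OE and its lowest line in MeGRX360-OE were those of *CML37*, and its log2 fold changes against vector were 4.95 and 3.80 (SE 0.30 each). *BAP1*, an inhibitor of cell death, stood at 4.99 and 4.05 (SE 0.37 each), and *LOX4*, a lipoxygenase of jasmonate synthesis, at 4.59 and 3.78 (SE 0.25 each). *WRKY53*, a factor of senescence and immunity, rose by 4.65 and 2.91 on the log2 scale (SE 0.25 each). It was the only one of the 12 called in MeGRX232-OE against MeGRX360-OE, at 1.74 (SE 0.25, adjusted p = 0.0482 from limma). Of all probe sets, 0.0572% were called higher and 0.0879% lower in that comparison. The *WRKY53* call lay at the threshold and was lost under 12 of 18 alternatives, with an adjusted p of 0.455 in the plain two-sample test.

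The core hypoxia genes, to which *CML38* belongs, were nearly all without a name, with 2 of 20 named by the annotation and 1 more through the study's lists. *PDC2*, a pyruvate decarboxylase of ethanol fermentation, had 440 to 683 in MeGRX232-OE, 357 to 752 in MeGRX360-OE, against 69.4 to 104 in vector arrays, and rose by 2.67 and 2.52 on the log2 scale (SE 0.28 each). *HRA1*, a factor that restrains the hypoxia response, was dim in all groups and did not pass the test, at 0.05 and 0.06 (SE 0.18 each). *RBOHD*, an oxidase that makes superoxide at the plasma membrane, rose by 1.94 and 1.29 (SE 0.25 each). Such a small share of the list describes these genes and not the response as a whole.

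**Figure D4:**
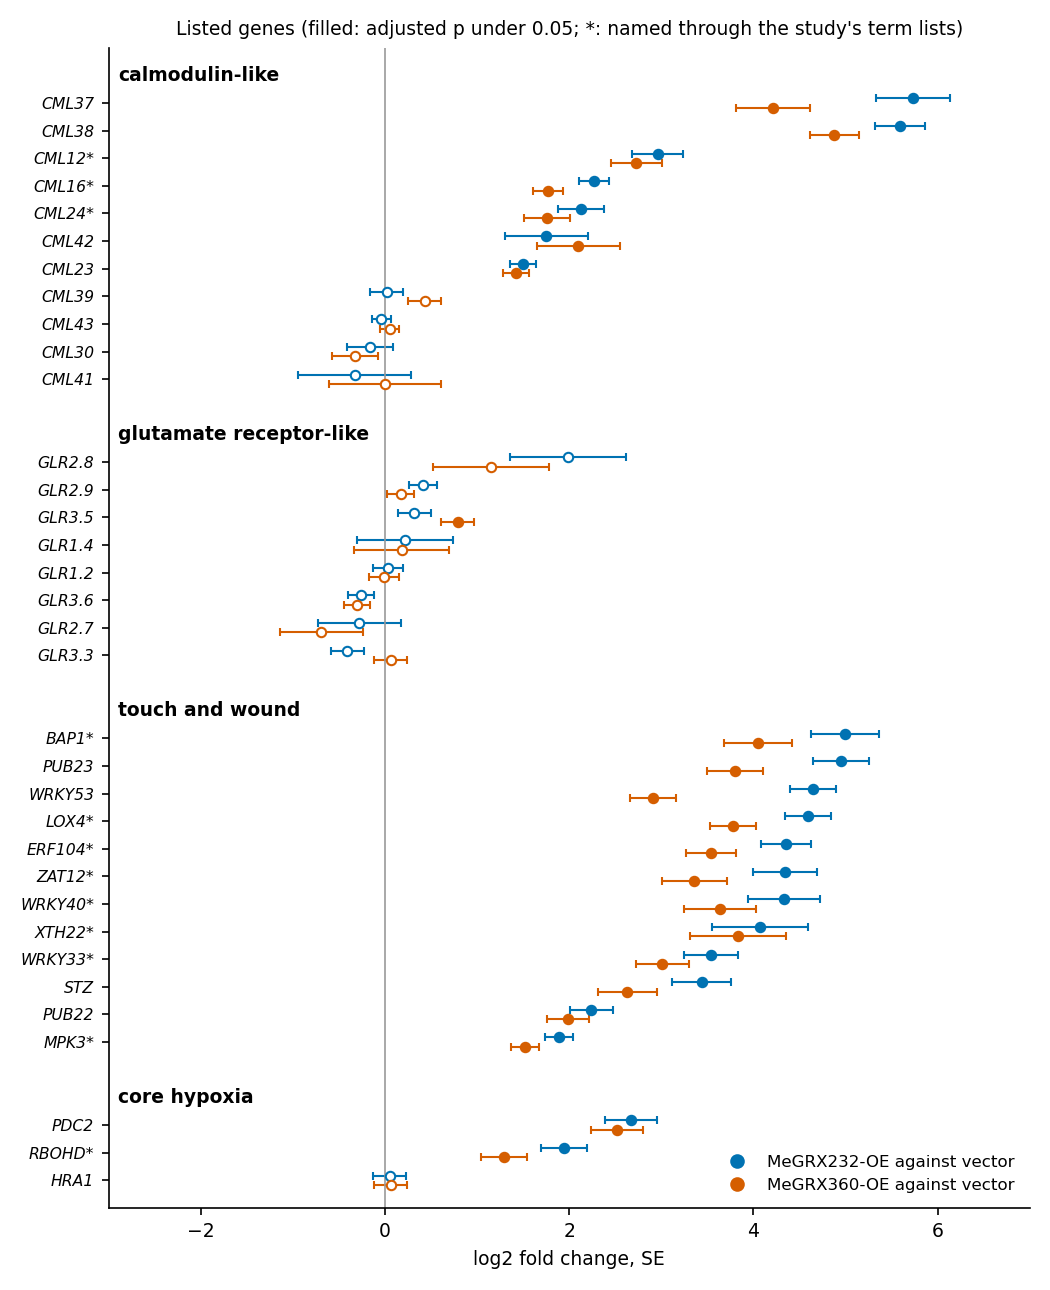
Log2 fold changes (x axis, bars are SE) of calmodulin-like, glutamate receptor-like, touch and wound, and core hypoxia genes (rows) in MeGRX232-OE and MeGRX360-OE against vector. Filled points have an adjusted p under 0.05, and an asterisk marks names from the study's own lists. *CML37* and *CML38*, at 4.21 to 5.73, lie above the other family members shown, of which *CML12* is next at 2.96 and 2.73. Of 16 glutamate receptor-like points 1 is filled.

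Profiles over the 9 arrays were compared with those of the 13512 other probe sets that the annotation gives to a single gene. The points of such a comparison share their 3 groups, so any gene with the same group means scores high, and the values are descriptions. By Pearson correlation *CML37* was nearest to AT1G23710 (r = 0.995), *PUB23* (0.995), AT4G12070 (0.993), AT5G47070 (0.990) and AT1G53400 (0.989), and 166 probe sets had r above 0.95. These included genes with far smaller changes, such as AT1G53400 with log2 fold changes of 0.91 and 0.73 in MeGRX232-OE and MeGRX360-OE against vector. By the root mean square difference of log2 values centred on their mean, which weighs size too, the nearest were *PUB23* (0.40), AT3G02840 (0.45), AT2G22880 (0.53), AT5G10695 (0.53) and *CML38* (0.56). AT3G02840 was higher than *CML37* in its change in MeGRX232-OE, at 6.00, and lower in MeGRX360-OE, at 3.96.

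*CML38* was nearest by correlation to AT1G32920 (0.997), AT2G39920 (0.994), AT3G04640 (0.993), AT2G27080 (0.993) and AT4G30660 (0.993), with 142 probe sets above 0.95. By the root mean square difference it was nearest to *PUB23* (0.51), AT2G39920 (0.52), AT3G10930 (0.55), AT1G22570 (0.56) and *CML37* (0.56). *PUB23* was thus the nearest named gene to both by that measure, and *CML37* and *CML38* were each on the other's list, with r = 0.974. *CML39* correlated with them at only 0.302 and 0.297. Its nearest profiles by root mean square difference were AT1G80810 (0.07), AT5G39970 (0.11), AT2G07732 (0.11), AT3G01270 (0.11) and AT2G07777 (0.12), and by correlation *nad5* (0.966), AT1G80810 (0.964), AT1G54720 (0.962), AT2G45920 (0.961) and AT5G35800 (0.958). AT1G80810 had its highest value, 54.0, in line 5 of MeGRX360-OE too, against 27.9 to 35.8 in MeGRX232-OE and 30.6 to 31.1 in vector arrays, and 5 probe sets in all correlated with *CML39* above 0.95.

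**Figure D5:**
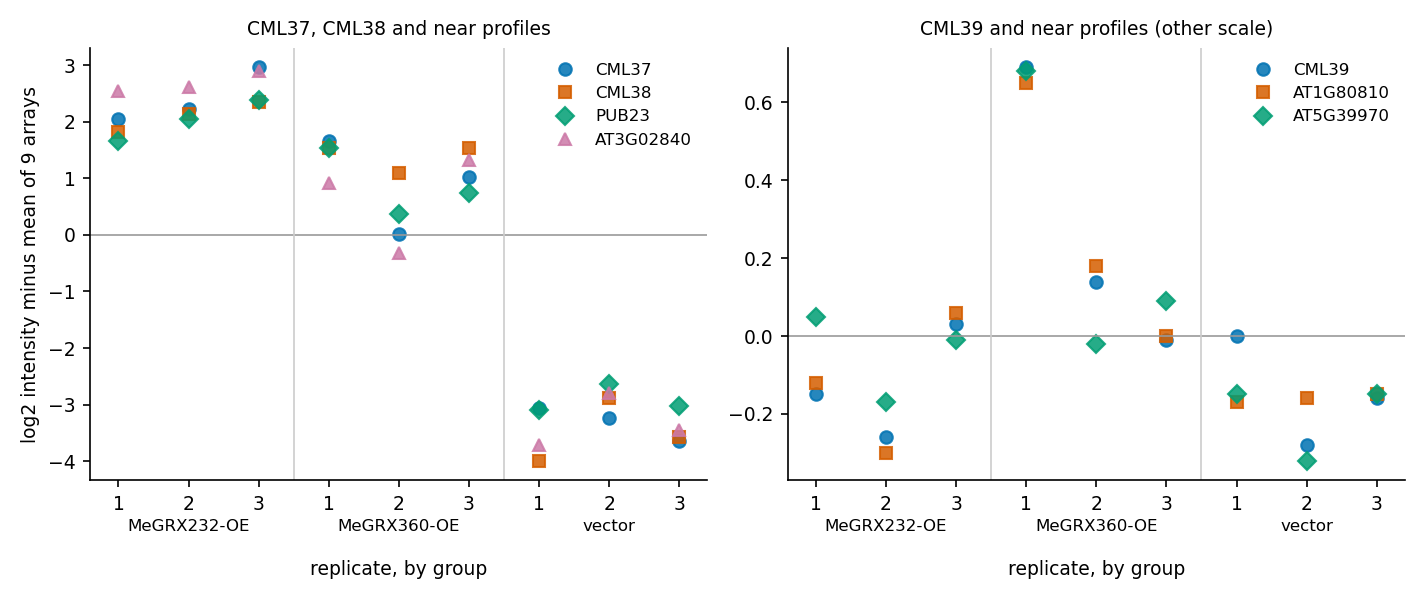
Log2 intensity minus the mean of the 9 arrays (y axis) for each array (x axis, replicates within groups), for *CML37*, *CML38* and 2 near profiles on the left and *CML39* with 2 near profiles on the right, on a finer scale. On the left the vector arrays lie far below all others, and replicate 2 of MeGRX360-OE (line 11) is the lowest overexpressor array for each gene. On the right replicate 1 of MeGRX360-OE (line 5) stands above the other arrays.

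Leaving aside the members themselves, the genes directly beside them showed no change of like size. Beside *CML37*, AT5G42370 had log2 fold changes of -0.06 in MeGRX232-OE and -0.01 in MeGRX360-OE against vector, and *SPP*, AT5G42390, had -0.21 and -0.23 (SE 0.19 each), with no call. On the far side of *CML38*, AT1G76660 was called higher in MeGRX232-OE, by 0.45 (SE 0.12, adjusted p = 0.0279 from limma), and stood at 0.15 in MeGRX360-OE without a call. On the far side of *CML39*, AT1G76630 was called lower in MeGRX232-OE, at -0.58 (SE 0.17, adjusted p = 0.0360), and stood at -0.42 (adjusted p = 0.134) in MeGRX360-OE. Both are dim, with geometric means of 16.6 and 8.14 in MeGRX232-OE, 13.5 and 9.12 in MeGRX360-OE, and 12.1 and 12.2 in vector arrays. Along this stretch *CML38* was therefore the only gene of 4 whose log2 fold change exceeded 1 in either direction.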

How the data were processed

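Biotinylated cRNA from 6 µg of total RNA of mature leaves was hybridized to 9 ATH1 arrays. The values the authors deposited are normalized intensities of 22810 probe sets, not log-transformed. The submitters' processing notes name RMA. Its version, its settings and why the values are linear were not given in the sources used here. Log2 was taken first, 64 control probe sets were left out, and limma 3.58.1 (R 4.3.3) was fitted with 1 mean per group over all arrays, with 6 residual and 2.76 prior degrees of freedom. The fit was tested on simulated data of the same size, where part of the smaller planted changes was missed. Exact permutation tests, likeness and joins used Python 3.11.15 with scipy 1.17.1.

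The annotation gives 13513 probe sets 1 gene, 503 several, and does not list 8794. The members and gene lists were chosen with earlier results of these data known. Named were the members, up to 8 family genes and 4 genes of each other list by size of change in MeGRX232-OE, the 5 nearest profiles by each measure, and direct neighbours. *STZ*, *PUB22*, *CML30* and *CML43* were named besides, after their values were seen. The glutamate receptor-like channels and *HRA1* joined the lists after the annotation was read. Alternatives were a replicate block, quantile normalization, median centring, a filter on the dimmest 40%, an intensity trend, array weights, only the 6 arrays compared, an offset of 16, an equal-variance two-sample test, and leaving out each array. Promoter and protein sequences were not analysed here.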

Additional observations from a re-analysis of the deposited data

Results flagged for a closer look

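*WRKY53*, the touch and wound gene that was higher in both overexpressors, is listed because its change against vector differed between MeGRX232-OE and MeGRX360-OE by the test of the difference itself, at 1.74 on the log2 scale (limma, adjusted p = 0.0482). The call was lost under 12 of 18 alternatives, run on this gene after its value was seen, with adjusted p from 0.0230 to 0.455, the highest in a plain two-sample test. With each of the 9 arrays left out in turn it was called 2 times, at 0.0433 to 0.117, and lost without MeGRX232-OE replicate 1 or 3, MeGRX360-OE replicate 2 or 3, or any vector array. The log2 difference stayed between 1.45 and 1.93. Its intensities were 1152, 1005 and 1195 in MeGRX232-OE and 381, 223 and 438 in MeGRX360-OE.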

How the results depend on the processing

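The calls of *CML37* and *CML38* against vector, and their lack of a call in MeGRX232-OE against MeGRX360-OE, were the same under all 18 alternatives run on them, the plain two-sample test included. *CML39* was never called. Its log2 fold change in MeGRX232-OE against vector, 0.02, changed sign with quantile normalization (-0.02) and ranged from -0.06 to 0.10 with single arrays left out. The filter on dim probe sets removed *CML39*. The main fit did not pair arrays by replicate number. Correlations between same-numbered deviations were -0.21 to 0.27. Differently numbered arrays were not compared, so these values cannot show whether the numbers pair the arrays. With a replicate block *CML37* had 5.73 (adjusted p = 4.09e-04) and 4.21 (adjusted p = 0.00211) in MeGRX232-OE and MeGRX360-OE against vector, 4724, 3302 and 25 probe sets were called in the 3 comparisons, and no call of a member changed. Leaving out an array gave 4.48 to 5.09 for *CML37* minus *CML39* and 4.68 to 5.37 for *CML38* minus *CML39*, with adjusted p at 0.0536 or 0.107, because fewer arrays allow no smaller p. *CML37* minus *CML38* ranged from -0.52 to 0.11, the positive value without vector replicate 1, and was -1.34 with the offset of 16. Counts of called probe sets moved more. The plain two-sample test called 2161 and 1646 in MeGRX232-OE and MeGRX360-OE against vector, where limma called 5009 and 3746. Array weights gave 5701 for MeGRX360-OE against vector, and single arrays left out gave 2219 to 4063, with 2389, 2455 and 2219 without MeGRX360-OE replicate 3, vector replicate 1 and vector replicate 2. In MeGRX232-OE against MeGRX360-OE limma called 33, while median centring gave 21, array weights 530, only the 6 arrays compared 5, the offset 14, and single arrays left out 4 to 177. The plain test called 0 there, with 2048 at an unadjusted p under 0.05. The cause of these moves was not tested. Signal over background limits what can be said of *CML39* and of *CML37* in vector plants.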
